A study of Mus musculus with 8 samples.

Results

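The miR-15, miR-16 and miR-195 family was followed in small-RNA libraries of mouse liver. It was taken as 9 mature miRNAs, those whose identifier in the deposited files equals mmu-miR-15a-5p, mmu-miR-15a-3p, mmu-miR-15b-5p, mmu-miR-15b-3p, mmu-miR-16-5p, mmu-miR-16-1-3p, mmu-miR-16-2-3p, mmu-miR-195a-5p or mmu-miR-497a-5p, of 1341 known mature miRNAs listed in at least 1 library. No member had more than 1 row in a file, and a member missing from a file was set to 0. Livers came from 4 Snd1 KO and 4 WT male mice of the C57BL/6N strain, aged 8 to 12 weeks, with 1 library for each mouse, and the question was how loss of Snd1 alters miRNA levels. The left lobe was taken around noon from mice that had not been fasted. The KO allele is a germline deletion of the first exon, made by crossing a floxed line from 129/Sv embryonic stem cells with mice that express Cre from the ubiquitous CAG promoter, followed by backcrossing to C57BL/6N, and both genotypes were littermates of heterozygous parents. Small-RNA sequencing does not measure the Snd1 mRNA, so its absence in KO livers could not be checked here. Levels are given in CPM, the number of tags of a miRNA in 1000000 tags of its library. Such values are relative, so they cannot show whether the total amount of miRNA in a liver rose or fell. In a bulk sample fewer cells of a type and less RNA per cell cannot be told apart.

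A miRNA guides an Argonaute protein to mRNAs that pair with its seed, the bases near its 5′ end, and so lowers their stability and translation. The miR-15 and miR-16 family is known for holding back the cell cycle. Its targets include cyclin D1, cyclin E1 and CDK6, which drive cells out of G1, and the survival factor BCL2, and the MIR15A and MIR16-1 locus is often deleted in human chronic lymphocytic leukaemia. Of the arms of each hairpin, the 5p arm is the usual guide and the 3p arm is mostly discarded. Snd1, also called Tudor-SN, is a nuclease that in human cells cuts a set of miRNAs at CA and UA dinucleotides.

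The sequences of the 5 guides are shown because they define the family and because their dinucleotides are the kind of site Snd1 can cut. Those of miR-322-5p and miR-503-5p, known relatives of the family, are shown with them. All are from RefSeq (GRCm38.p6), written 5′ to 3′ with the seed, bases 2 to 8, in capitals.
mmu-miR-15a-5p: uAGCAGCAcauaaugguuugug
mmu-miR-15b-5p: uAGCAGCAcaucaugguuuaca
mmu-miR-16-5p: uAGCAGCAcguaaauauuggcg
mmu-miR-195a-5p: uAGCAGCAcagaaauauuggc
mmu-miR-497a-5p: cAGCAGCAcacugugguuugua
mmu-miR-322-5p: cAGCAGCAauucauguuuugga
mmu-miR-503-5p: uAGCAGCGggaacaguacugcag

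The 5 guides and miR-322-5p share the seed AGCAGCA, and miR-503-5p has AGCAGCG. This seed occurs in 10 of the 1679 mature mouse miRNAs taken from RefSeq, and 6 of them are listed in these libraries. The others, miR-195b, miR-6342, miR-6353 and miR-6419, were not analysed here. miR-16-5p and miR-195a-5p are the closest pair of guides and differ at 2 of the 21 bases compared, while miR-15a-5p and miR-15b-5p differ at 4 of 22 and miR-16-5p and miR-497a-5p at 11 of 22. The sources used here do not state how tags that fit more than 1 miRNA or locus were counted.

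The dinucleotides CA and UA were counted along the given strand of each mature sequence. The guides hold 5 of them each, except miR-15b-5p with 7. Some of these lie in the shared seed, so part of each count comes with the definition of the family. Among the 402 of 475 tested miRNAs with a sequence in the table (84.6%) the median was 2.5, and 10.7% held at least 5. The 4 passenger arms hold fewer: 4 in miR-15a-3p, 3 in miR-15b-3p, 2 in miR-16-1-3p and 3 in miR-16-2-3p. This is a count of letters in the sequence and not a record of cutting.

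The passenger arms have seeds of their own and are shown here. Among the members, only miR-16-1-3p and miR-16-2-3p tell the chromosome 14 and chromosome 3 hairpins of miR-16 apart.
mmu-miR-15a-3p: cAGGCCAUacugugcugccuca
mmu-miR-15b-3p: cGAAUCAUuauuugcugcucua
mmu-miR-16-1-3p: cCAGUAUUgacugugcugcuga
mmu-miR-16-2-3p: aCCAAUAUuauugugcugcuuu

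The hairpins lie in 3 pairs (GENCODE annotation of GRCm38). Mir15a (chr14:61632027-61632110) and Mir16-1 (chr14:61631880-61631972) are on the minus strand within the long non-coding gene Dleu2, Mir15a in an intron and Mir16-1 overlapping an annotated exon, with 54 bases between them. Mir15b (chr3:69009772-69009835) and Mir16-2 (chr3:69009902-69009996) are on the plus strand in an intron of Smc4, a gene of the condensin complex, with 66 bases between them. Mir497 (chr11:70234717-70234800) and Mir195a (chr11:70235042-70235135) are on the plus strand with 241 bases between them. Both copies of miR-16 give the same 5p sequence, so its level is the sum of chromosomes 14 and 3.

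The libraries held 16223610 to 27526162 tags, so that 1 tag corresponds to 0.0363 to 0.0616 CPM, and counting error is small for the guides. Tags are PCR reads without molecular identifiers, and these limits cover counting error only. Known miRNAs made up 75.9 to 78.7% of the tags in 4 libraries, KO replicates 2 and 3 and WT replicates 1 and 2, and 57.9 to 67.6% in KO replicates 1 and 4 and WT replicates 3 and 4. These are called the high-share and low-share libraries below, and each holds both genotypes. The line between them was set at the widest gap among these same shares. That gap, from 67.6 to 75.9%, is narrower than the span of the low-share libraries. The tag total of KO replicate 1 is less certain, since its file holds no genomic classes. The hepatocyte miRNA miR-122-5p was the most abundant of all, with 224542 to 351742 CPM in KO livers against 206141 to 334039 CPM in WT livers. The summed markers of muscle and pancreas, which should be low in liver, had 18.3 to 29.6 CPM in KO livers and 13.7 to 20.4 in WT livers.

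The family was dominated by miR-16-5p, a guide found in most tissues. It had 5448, 8135, 7479 and 4880 CPM in KO replicates 1 to 4, against 10396, 12169, 5565 and 7673 CPM in WT replicates 1 to 4. The lowest values of both genotypes lay close together, and only KO replicates 1 and 4 were below the lowest WT liver. The mean was 6486 ± 1567 CPM in KO and 8951 ± 2918 CPM in WT (SD, n = 4 each), with a log2 fold change of -0.43 (limma, SE 0.29, 95% confidence interval -1.09 to 0.22, adjusted p = 0.853 over 475 tested miRNAs). The groups overlapped, the difference was close to the SD within genotype (0.43 on the same scale), and the interval included 0.

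miR-15a-5p, the guide that shares the Dleu2 locus with miR-16, had 173, 485, 460 and 212 CPM in KO replicates 1 to 4, against 645, 858, 283 and 350 CPM in WT replicates 1 to 4. Here too KO replicates 1 and 4 lay below every WT liver, while KO replicates 2 and 3 lay among them. The log2 fold change was -0.68 (limma, SE 0.47, interval -1.73 to 0.37, adjusted p = 0.853). miR-15b-5p, the guide from Smc4, had 143, 630, 536 and 286 CPM in KO replicates 1 to 4, against 569, 630, 224 and 670 CPM in WT replicates 1 to 4. Only KO replicate 1 was below the WT range, and the log2 fold change was -0.49 (SE 0.52, interval -1.66 to 0.68, adjusted p = 0.971).

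miR-195a-5p, known in mouse heart for rising after birth as cardiomyocytes stop dividing, was the least abundant guide. It had 49.2, 95.3, 110.9 and 51.4 CPM in KO replicates 1 to 4, against 76.5, 135.6, 138.1 and 127.8 CPM in WT replicates 1 to 4. KO replicates 2 and 3 lay above WT replicate 1 and below the other WT livers. With a log2 fold change of -0.69 (limma, SE 0.37, interval -1.51 to 0.14, unadjusted p = 0.0931, adjusted p = 0.842), it had the lowest unadjusted p of the family. Its neighbour on chromosome 11, miR-497a-5p, had 273.8, 813, 582 and 298 CPM in KO replicates 1 to 4, against 660, 775, 288 and 501 CPM in WT replicates 1 to 4. KO replicate 2 was the highest of all 8 livers and KO replicate 1 the lowest, and the log2 fold change was -0.23 (SE 0.44, interval -1.22 to 0.75, adjusted p = 0.971).

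**Figure D1:**
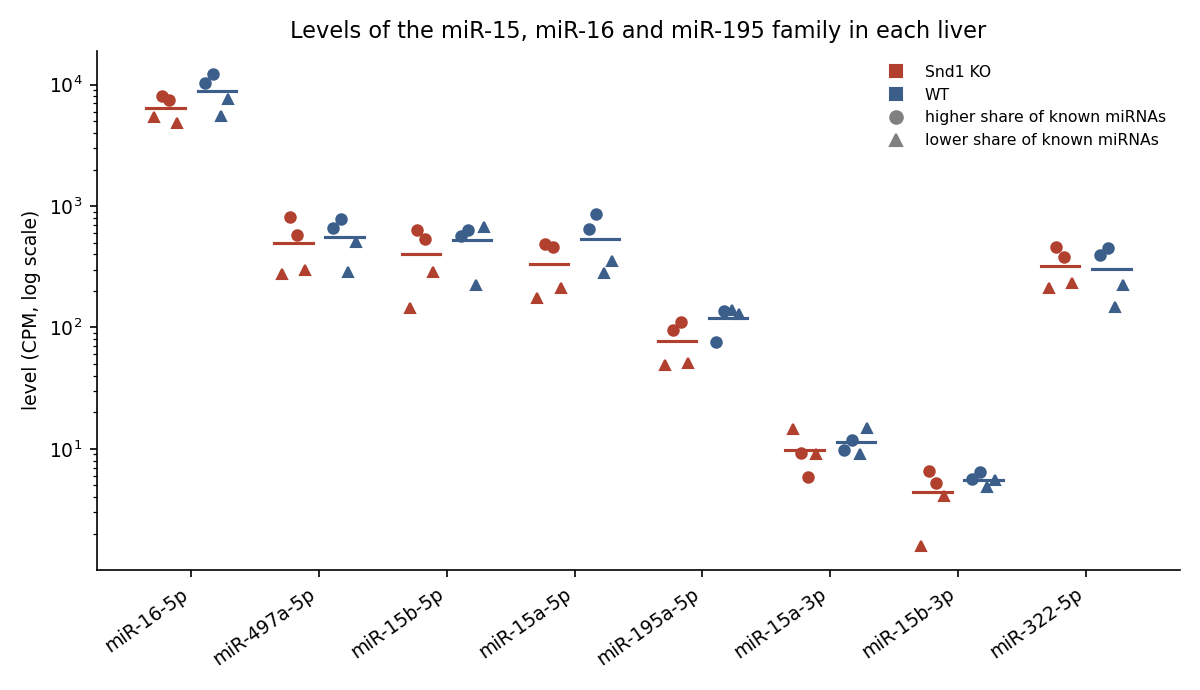
Levels of the 7 tested members and of miR-322-5p in CPM on a log axis, with KO livers left of WT livers for each miRNA. Each symbol is 1 liver, a circle for a high-share and a triangle for a low-share library, and the line is the mean of 4. miR-16-5p stands above all others, and the KO and WT values overlap for every miRNA shown.

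The passenger arms were far scarcer. miR-15a-3p had 14.6, 9.19, 5.88 and 9.03 CPM in KO replicates 1 to 4, against 9.71, 11.7, 9.0 and 14.9 CPM in WT replicates 1 to 4, with a log2 fold change of -0.25 (limma, SE 0.34, adjusted p = 0.971). miR-15b-3p had 1.57, 6.61, 5.26 and 4.06 CPM in KO replicates 1 to 4, against 5.59, 6.42, 4.81 and 5.50 CPM in WT replicates 1 to 4, for which limma gave a log2 fold change of -0.39 with an SE of 0.36 (adjusted p = 0.891). For miR-15b-3p the highest and the lowest livers were both KO, replicates 2 and 1.

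The passenger arms of miR-16 were at the limit of detection and were not tested. miR-16-2-3p, from chromosome 3, had 0, 9, 6 and 3 tags in KO replicates 1 to 4, against 7, 6, 4 and 3 tags in WT replicates 1 to 4. The 0 in KO replicate 1 allows a level of up to 0.138 CPM, the worth of 3 tags there. miR-16-1-3p, from chromosome 14, had 1 tag in KO replicate 3, 1 tag in WT replicate 2 and 0 in the other libraries, where a 0 allows up to 0.109 to 0.185 CPM. No difference between the genotypes was detectable for either arm at this depth.

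Of the 9 members, 7 reached the minimum for the test, at least 1 CPM in at least 4 libraries. limma with a mean-variance trend called 0 of the 7 at an adjusted p under 0.05, beside 0 of all 475 (0.0%). At an unadjusted p under 0.05 it gave 0 of the 7, beside 20 of 475 (4.21%), 11 higher and 9 lower in KO. This split depended on the scaling, with 13 higher and 3 lower when values were scaled to the known miRNA tags and 13 higher and 4 lower when scaled by median ratios. limma-voom on recovered tags also called 0 of 475, with 19 at an unadjusted p under 0.05. In 0 of the 7 did the KO and WT values separate, beside 14 of 475 (2.95%). All 7 log2 fold changes were negative, with a median of -0.43, beside 279 of 475 (58.7%) and a median of -0.11. Without KO replicate 1 those of miR-15b-5p, miR-15b-3p and miR-497a-5p were -0.07, -0.07 and -0.00115, and without KO replicate 3 that of miR-15a-3p was -0.05. The guides vary together between livers, so these signs are not independent of each other.

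**Figure D2:**
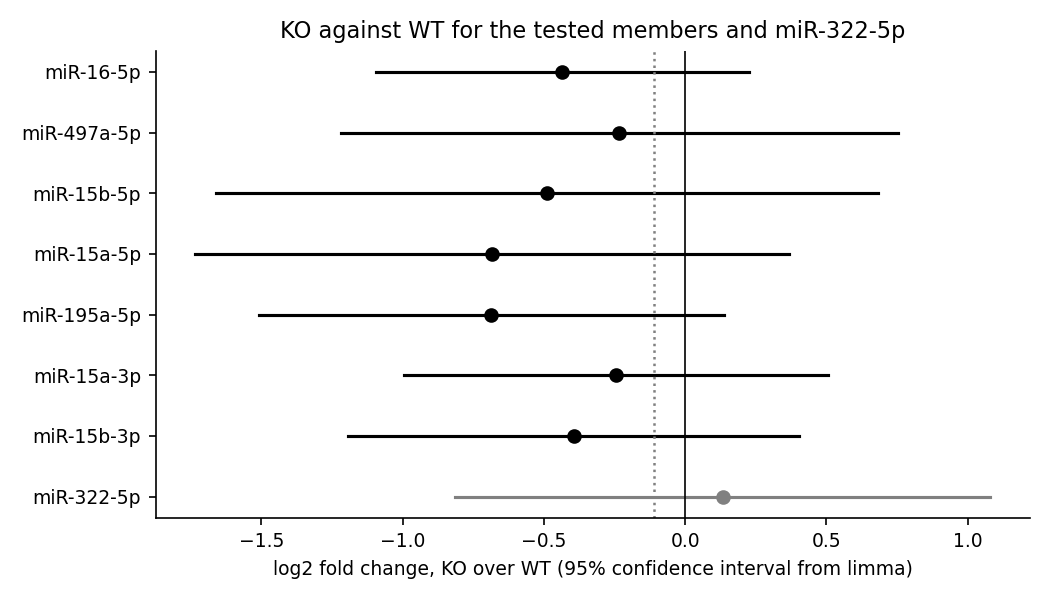
log2 fold change of KO over WT for each tested member (black) and miR-322-5p (grey), as points with 95% confidence intervals from limma, most abundant member at the top. The dotted line is the median of all 475 tested miRNAs, -0.11. All 7 members lie below 0, and every interval includes 0.

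Summed over its 9 members, the family had 6104, 10175, 9180 and 5741 CPM in KO replicates 1 to 4, against 12361, 14586, 6512 and 9343 CPM in WT replicates 1 to 4. WT replicates 1 and 2 had the highest sums and KO replicates 1 and 4 the lowest, while the other 4 livers were mixed. As a share of the known miRNA tags these were 1.05, 1.34, 1.18 and 0.872% in KO livers, against 1.58, 1.85, 1.04 and 1.38% in WT livers. The mean of the log2 sum was 12.88 ± 0.41 in KO and 13.32 ± 0.51 in WT (SD, n = 4 each), a difference of -0.44 that is of the size of the SDs and was -0.27 without WT replicate 2 and -0.65 without WT replicate 3. No p is given for this sum, since the members were chosen with results of these data known.

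Relatives outside the family were read from the same libraries. miR-322-5p, which has the family seed and comes from the X chromosome, had 209, 456, 380 and 232 CPM in KO replicates 1 to 4, against 393, 451, 147 and 223 CPM in WT replicates 1 to 4. The log2 fold change came to 0.13 (limma, SE 0.42, adjusted p = 0.971), and without KO replicate 2 or WT replicate 3 it was -0.06 and -0.17. miR-503-5p, from the neighbouring hairpin, was at 1.78 to 4.18 CPM in KO livers and 2.61 to 5.77 CPM in WT livers (log2 fold change -0.17, adjusted p = 0.971, and 0.04 without KO replicate 4). miR-195a-3p, the passenger of miR-195a, had 4.84 to 8.10 CPM in KO livers and 7.30 to 9.12 CPM in WT livers (log2 fold change -0.22, adjusted p = 0.971). miR-497a-3p was at 0 to 5 tags in every library, and miR-497b, from the strand opposite to miR-497a, at 0 to 0.14 CPM.

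In order of mean level, miR-16-5p (7718 CPM over the 8 livers, the 18th most abundant known miRNA) was followed by miR-497a-5p (523.9), miR-15b-5p (461), miR-15a-5p (433), miR-195a-5p (98.1), miR-15a-3p (10.5) and miR-15b-3p (4.98). These miRNAs are 21 or 22 bases long and each tag counts once, so no length correction was made. Whether different sequences give tags with equal yield was not checked. The order, and the arm shares given below, are therefore those of tags. miR-16-5p exceeded miR-497a-5p in 8 of 8 livers, by 3.94 ± 0.32 on the log2 scale (SD, n = 8; two-sided exact sign-flip permutation test, p = 0.00781, the smallest that 256 flips allow, adjusted p = 0.0117 over 6 neighbouring pairs). The steps to miR-195a-5p, miR-15a-3p and miR-15b-3p also held in 8 of 8 livers, at the same exact p. The pairs and their direction were taken from the mean levels in these same livers. Each p here therefore describes how steady a step was between livers and is no separate support for the order. The 3 guides in between were not separated. miR-497a-5p exceeded miR-15b-5p in 7 of 8 livers by 0.24 ± 0.38 (exact p = 0.109, adjusted p = 0.131), and miR-15b-5p exceeded miR-15a-5p in 4 of 8 by 0.09 ± 0.48 (exact p = 0.625, adjusted p = 0.625).

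Ratios within a library do not depend on how the library is scaled. The 3p arm made up 7.77, 1.86, 1.26 and 4.08% of the tags of both miR-15a arms in KO replicates 1 to 4, against 1.48, 1.35, 3.08 and 4.07% in WT replicates 1 to 4. In the low-share libraries of both genotypes this share was higher than in any high-share library. The mean difference of KO minus WT was 1.25 percentage points (two-sided exact permutation test over 70 assignments, p = 0.514, smallest possible 0.0286), and without KO replicate 1 it was -0.0955. For miR-15b the 3p arm made up 1.08, 1.04, 0.971 and 1.40% in KO livers, against 0.974, 1.01, 2.10 and 0.814% in WT livers, and WT replicate 3 stood alone above 2%. The mean difference was -0.100 percentage points (exact permutation p = 0.943), and without WT replicate 3 it was 0.191.

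The balance of the 2 miR-15 loci was read from their guides and from their passenger arms. The log2 ratio of miR-15a-5p to miR-15b-5p was 0.27, -0.38, -0.22 and -0.43 in KO replicates 1 to 4, against 0.18, 0.45, 0.34 and -0.94 in WT replicates 1 to 4. In each genotype 1 liver went against the other 3, KO replicate 1 upward and WT replicate 4 downward, and the means differed by -0.20 (exact permutation p = 0.571). Without WT replicate 2 this difference was -0.05, and without WT replicate 4 it was -0.51. The log2 ratio of the chromosome 3 to the chromosome 14 passenger arms averaged -1.21 ± 1.40 in KO and -0.94 ± 0.30 in WT (SD, n = 4 each; exact permutation p = 0.914). It was -3.22 in KO replicate 1, and without that liver the difference of -0.27 turned to 0.40. With the passenger arms of miR-16 at 0 to 9 tags, this ratio was almost only that of miR-15b-3p to miR-15a-3p. How far passenger arms follow the output of their locus was not tested.

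**Figure D3:**
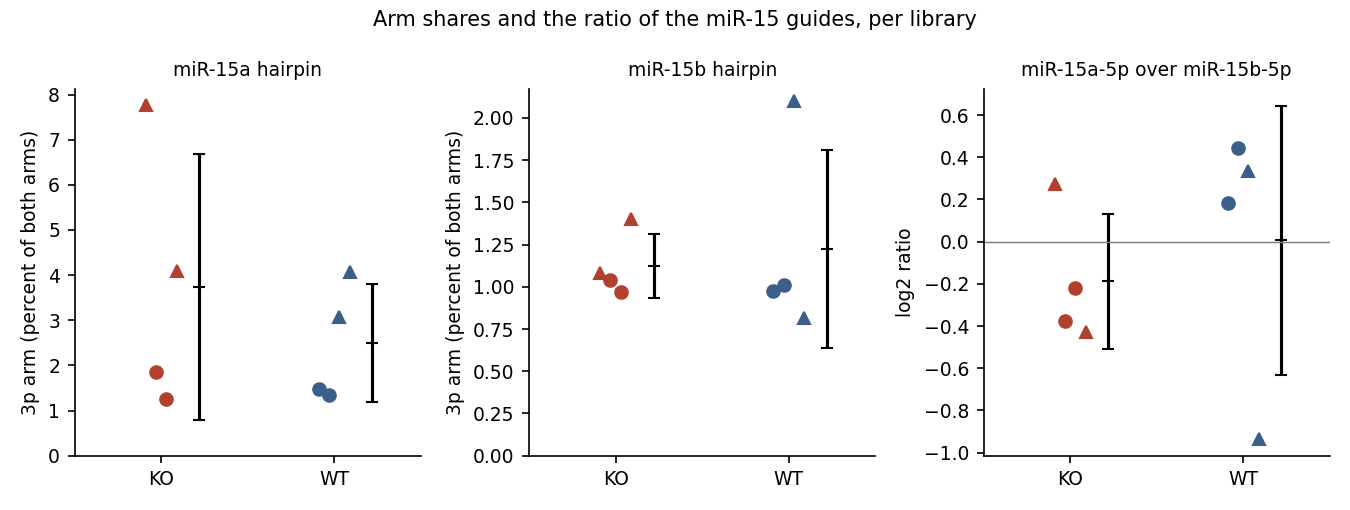
Share of the 3p arm among both arms of the miR-15a and miR-15b hairpins, in percent, and log2 ratio of the 2 miR-15 guides, with KO livers left of WT livers. Each symbol is 1 liver, a circle for a high-share and a triangle for a low-share library, and the bar is the mean with its SD (n = 4). The miR-15a share ran from 1.26 to 7.77%, with every triangle above every circle.

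Within the summed guides miR-16-5p took 89.5, 80.1, 81.6 and 85.2% in KO replicates 1 to 4, against 84.2, 83.5, 85.6 and 82.3% in WT replicates 1 to 4. Its mean share was thus 84.1 ± 4.2% in KO and 83.9 ± 1.38% in WT (SD, n = 4 each; exact permutation p = 0.971). The miR-15a-5p share was 4.09 ± 1.01% in KO and 4.81 ± 0.94% in WT (p = 0.343 by the same exact test). miR-497a-5p took 6.01 ± 1.53% in KO and 5.12 ± 0.459% in WT (exact p = 0.371). miR-15b-5p took 4.85 ± 1.74% in KO and 4.89 ± 1.61% in WT (exact p = 1.0), and miR-195a-5p 0.963 ± 0.173% in KO and 1.26 ± 0.653% in WT (exact p = 0.514). All 9 shares and ratios tested had a Benjamini-Hochberg adjusted p of 1.0.

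The mean log2 level of each guide was higher in the high-share than in the low-share libraries, and for 4 of the 5, all but miR-195a-5p, this difference was larger than that between the genotypes. Neither the differences nor their order were tested, and only miR-15a-5p and miR-497a-5p separated the libraries without overlap. miR-15a-5p had 460 to 858 CPM in the 4 high-share libraries and 173 to 350 CPM in the 4 low-share libraries, a log2 difference of 1.27. miR-497a-5p had 582 to 813 CPM in the high-share and 274 to 501 CPM in the low-share libraries, a difference of 1.09. miR-322-5p had 380 to 456 CPM in the high-share and 147 to 232 CPM in the low-share libraries, a difference of 1.06. Over the 5 guides the mean log2 difference ran from 0.32 to 1.27, beside a median of -0.24 over all 475 tested miRNAs and a log2 ratio of 0.29 between the mean miRNA shares. The high-share libraries all lay above the low-share ones for 2 of the 7 members, beside 46 of 475 (9.68%). What sets the high-share and low-share libraries apart was not tested.

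Within each kind of library the KO livers were lower for the miR-16 and miR-15a guides. Both KO values of miR-16-5p lay below both WT values in the high-share and again in the low-share libraries, with log2 differences of -0.53 and -0.34, and the same held for miR-15a-5p, with -0.65 and -0.71. This was met by 2 of the 7 members, beside 39 of 475 (8.21%). miR-195a-5p had 49.2 and 51.4 CPM in the low-share KO libraries, against 138.1 and 127.8 CPM in the low-share WT libraries, a log2 difference of -1.38. In the high-share libraries its KO values of 95.3 and 110.9 CPM lay between the WT values of 76.5 and 135.6 CPM, a log2 difference of 0.01. That difference rests on WT replicate 1, at 76.5 CPM, which stood apart from the other WT livers. The gap between the differences in the high-share and low-share libraries was not tested. With the kind of library as a covariate, limma gave 2 of the 7 an unadjusted p under 0.05 and lower in KO, miR-15a-5p (adjusted p = 0.198) and miR-16-5p (adjusted p = 0.262), beside 39 of 475 (8.21%). It called 0 of the 7, beside 1 of 475 (0.211%).

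**Figure D4:**
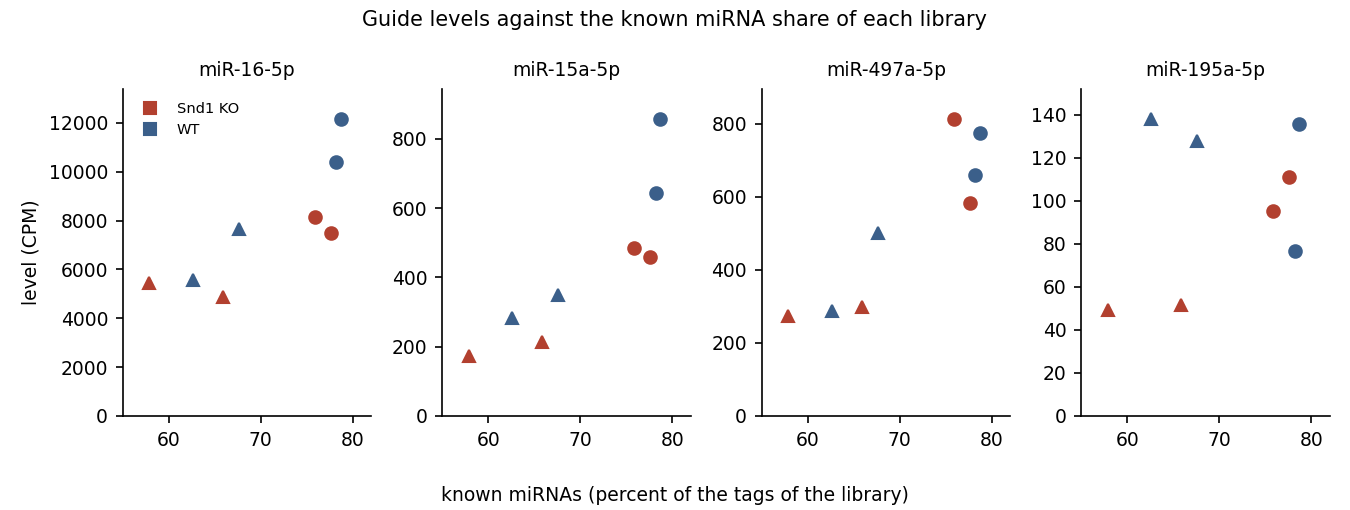
Levels in CPM of miR-16-5p, miR-15a-5p, miR-497a-5p and miR-195a-5p against the share of known miRNAs among the tags of each library, in percent, with KO in red and WT in blue, circles for high-share and triangles for low-share libraries. For miR-15a-5p and miR-497a-5p every circle lies above every triangle, while for miR-16-5p the circles are higher on average but overlap the triangles. miR-16-5p and miR-15a-5p are lower in KO within each kind of library, while miR-195a-5p shows 2 low KO triangles at 49.2 and 51.4 CPM.

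The spread between livers of a genotype was described because miR-16 is used as a reference in quantitative PCR. It is a spread of tags, and no quantitative PCR values of these livers were used. It also includes the difference between high-share and low-share libraries, which was 0.69 on the log2 scale for miR-16-5p. The SD of log2(CPM + 1) within genotype was 0.43 for miR-16-5p, and 34.9% of the 475 tested miRNAs varied less. Among the 50 tested miRNAs of at least 1000 CPM 23 varied less, and their median SD was 0.45. miR-15b-5p and miR-15a-5p were the most variable members, with SDs of 0.86 and 0.75, above 83.2 and 75.2% of the tested miRNAs, and miR-497a-5p had 0.70. miR-195a-5p, at 0.51, was close to the median of 0.52. As a coefficient of variation, miR-16-5p had 24.2% in KO and 32.6% in WT, and miR-15b-5p 56.1% in KO and 38.9% in WT.

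**Figure D5:**
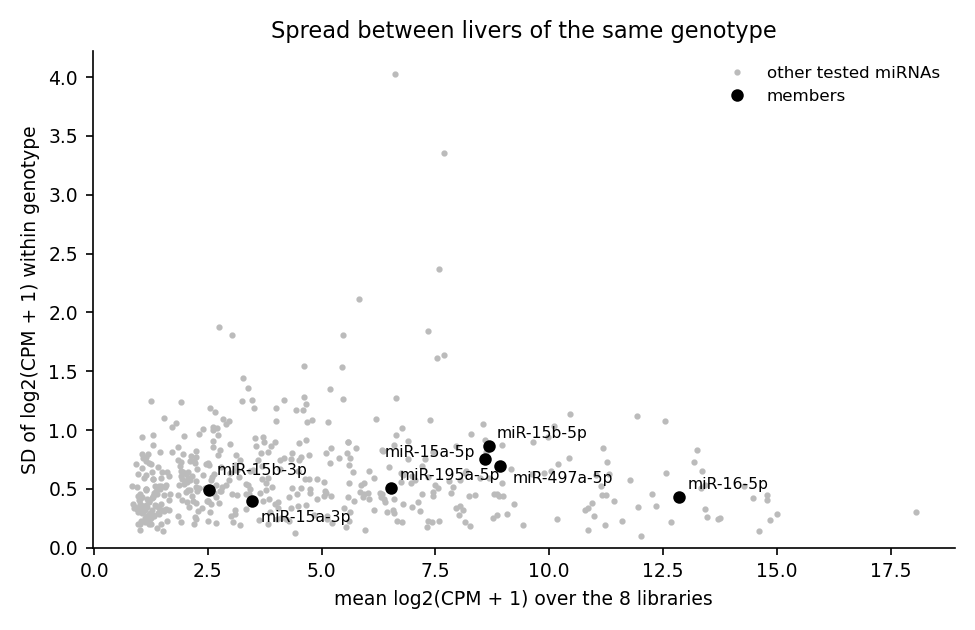
SD of log2(CPM + 1) between livers of the same genotype against the mean of log2(CPM + 1) over the 8 libraries, for 475 tested miRNAs (grey) with the 7 tested members marked (black). miR-16-5p, at an SD of 0.43, lies below the median of 0.52, and miR-15a-5p and miR-15b-5p, at 0.75 and 0.86, lie above it.

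After the genotype means were removed, miR-16-5p, miR-15a-5p and miR-497a-5p varied together over the 8 livers, with Pearson r of 0.94 to 0.95 for each pair. These points share libraries, scaling and miRNA share, so r is a description. miR-15a-5p and its own passenger miR-15a-3p had r of -0.44, whereas miR-15b-5p and miR-15b-3p had 0.86. miR-195a-5p and its cluster neighbour miR-497a-5p had only 0.45.

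Among the 468 tested miRNAs outside the family, the most alike to miR-16-5p was miR-322-5p (r = 0.98, Spearman rho 0.98), followed by miR-101a-3p (0.97) and miR-32-3p (0.96). For miR-15a-5p they were miR-126a-3p (r = 0.99, rho 1.0), a miRNA of endothelial cells, miR-301a-3p (0.99) and miR-32-3p (0.98). For miR-497a-5p they were miR-22-5p (0.98), miR-101b-3p (0.97) and miR-338-3p (0.97), and for miR-15b-5p miR-200b-3p (0.95), miR-30d-3p (0.95) and miR-31-3p (0.94). miR-195a-5p had lower values, led by miR-106b-5p (0.94), miR-467e-5p (0.91) and miR-201-5p (0.89).

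Markers of liver cell types were set beside miR-16-5p in the same way, and the members of a list did not share 1 pattern. Among the 5 erythroid markers, miR-451a had 7084, 14977, 13254 and 8159 CPM in KO replicates 1 to 4, against 17216, 15080, 7832 and 9488 CPM in WT replicates 1 to 4. Its r with miR-16-5p was 0.92, while miR-144-5p had 0.75, miR-144-3p 0.12, miR-486a-5p -0.06 and miR-486b-5p -0.77. The 2 endothelial arms, miR-126a-3p and miR-126a-5p, had 0.93 and 0.62. Of the 5 hepatocyte markers miR-122-5p had 0.87, and the list ran from -0.62 to 0.87.

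The 6 leukocyte markers ran from -0.65 for miR-223-3p to 0.70 for miR-146a-5p, the 5 mesenchymal and stellate markers from -0.82 for miR-214-3p to 0.44 for miR-199a-3p, and the 5 biliary markers from -0.09 to 0.78. With miR-195a-5p the order was another, led by miR-144-3p (0.82), miR-126a-5p (0.80) and miR-146a-5p (0.77), while miR-451a had 0.28 and miR-122-5p 0.21. The part of these cell types in the levels of the family was not tested.

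The lists were not tested as lists between the genotypes. The 5 erythroid markers summed to 7612 to 15378 CPM in KO livers and 8532 to 17679 CPM in WT livers. Their median log2 fold change was -0.33 with 5 of 5 negative, beside 279 of all 475 tested miRNAs (58.7%). The 2 endothelial markers summed to 5812 to 17880 CPM in KO and 6236 to 19516 CPM in WT livers, with a median of -0.24. The 5 hepatocyte markers had a median of -0.25, the 6 leukocyte markers -0.39, the 5 mesenchymal and stellate markers -0.04 and the 5 biliary markers -0.16, and in each list 0 were called by limma, with only the neutrophil miRNA miR-223-3p at an unadjusted p under 0.05 (0.0237, lower in KO). Of the leukocyte markers 4 had a negative and 2 a positive log2 fold change. The largest change in this list was positive, 1.74 for miR-150-5p, with overlapping KO and WT values. The leukocyte markers summed to 1408 to 1887 CPM in KO livers and 1127 to 1764 CPM in WT livers. No marker of these lists was at 0 in all libraries.

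Wider lists of cell-cycle miRNAs were set beside the family. Of 22 miRNAs known to hold back G1 exit, among them let-7, miR-26, miR-29, miR-34 and miR-101, 20 were tested, 17 of them had a negative log2 fold change, and the median was -0.30. Their summed level was 115166 to 190099 CPM in KO livers and 131685 to 187189 CPM in WT livers. Of 12 miRNAs known to promote proliferation, the miR-17 and miR-106b clusters, miR-221, miR-222 and miR-21a, 8 had a negative value, and the median was -0.14. Among all tested miRNAs 279 of 475 (58.7%) were negative. limma called 0 of either list, beside 0 of 475. Only miR-21a-5p, which is raised in many tumours, had an unadjusted p under 0.05 (log2 fold change -0.66, adjusted p = 0.842). Both medians were below the -0.11 of the tested miRNAs as a whole.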

How the data were processed

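Small RNAs of 18 to 30 bases from 4 Snd1 KO and 4 WT livers were sequenced on the BGISEQ platform. The authors filtered the tags for quality and adaptors, aligned them to GRCm38 by Bowtie (version not given in the sources used here), and used DEGseq for their own comparison, which is not used here. The deposited values are CPM (headed TPM in the files, with no division by length), rounded to 2 decimals, and 1 file was deposited per library.

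The 475 known mature miRNAs that reached 1 CPM in 4 or more libraries were compared as log2(CPM + 1) with limma 3.58.1 (R 4.3.3) with a mean-variance trend, genotype as the only term and Benjamini-Hochberg adjustment at 0.05. A fold change on this scale understates the change of scarce miRNAs. Ratios were tested by exact permutation of the genotypes (two-sided, 70 assignments), and neighbouring levels by exact sign flips. Tag totals were recovered as the number that turns every value into whole tags within 0.0051 CPM. The scripts were tested on simulated data. Named were all members, listed miRNAs with the seed of miR-16-5p, miR-503-5p, other arms of these hairpins, the opposite-strand miRNA, and for each guide the 3 most correlated miRNAs outside the family. Markers and miR-21a-5p were named from the lists after their values were seen. The members and lists were chosen with earlier results of these data known. Alternatives were other scalings, pseudocounts, filters and tests, the replicate number as a block, the kind of library by its miRNA share, and each library left out in turn.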

Additional observations from a re-analysis of the deposited data

Results flagged for a closer look

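In 4 of the 40 groups of 4 livers checked, 1 value stood apart from the other 3, where chance flags about 1 in 20 groups, or 2. All 4 were WT livers. miR-195a-5p had 76.5 CPM in WT replicate 1, against 127.8 to 138.1 CPM in the other WT livers. The 3p arm made up 2.10% of the miR-15b tags in WT replicate 3, against 0.814 to 1.01% in the others. The log2 ratio of chromosome 3 to chromosome 14 passenger arms was -1.39 in WT replicate 4, against -0.83 to -0.72 in the others. The miR-497a-5p share of the guides was 4.43% in WT replicate 3, against 5.32 to 5.38% in the others.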

How the results depend on the processing

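Over all alternatives the 7 tested members gave 138 log2 fold changes, of which 137 were negative. The exception was miR-195a-5p at 0.0133 within the high-share libraries, where miR-322-5p was -0.0158. The values within the high-share or the low-share libraries alone were not tested and could not be called. Of the others 0 were called (adjusted p 0.198 to 0.999 from limma). These values all reuse the same livers and are not independent. The filters on low values, robust fitting, the replicate block and the covariate leave a fold change as in the main fit. Those settings could therefore not turn its sign. Scaling to known miRNA tags or by median ratios left miR-16-5p at -0.38 and -0.34. With each library left out in turn miR-16-5p ran from -0.64 to -0.27, miR-15a-5p from -0.94 to -0.41, miR-15b-5p from -0.85 to -0.07, miR-497a-5p from -0.52 to -0.00115, miR-15b-3p from -0.60 to -0.07, miR-15a-3p from -0.45 to -0.05, miR-195a-5p from -0.89 to -0.51, the family sum from -0.65 to -0.27, miR-322-5p from -0.17 to 0.37 and miR-503-5p from -0.30 to 0.0384. Of all tested miRNAs, 1 outside the family was called with the kind of library as a covariate, and 0 to 1 with a library left out (1 without WT replicate 2). Against 20 of 475 at an unadjusted p under 0.05, the covariate gave 65 and no filter on low values gave 66 of 1341. Directions turned within the high-share libraries for the miR-15b 3p share (0.0135 percentage points), the ratio of passenger arms (0.52), and the guide shares of miR-15b-5p (1.56), miR-16-5p (-3.05) and miR-195a-5p (0.299), and within the low-share libraries for the miR-15a-5p to miR-15b-5p ratio (0.22) and the miR-497a-5p share (-0.0505); the cause was not tested. With a library left out the miR-15a 3p share ran from -0.0955 to 2.08, the miR-15b 3p share from -0.237 to 0.191, the ratio of passenger arms from -0.63 to 0.40, the miR-15a-5p to miR-15b-5p ratio from -0.51 to -0.05, the miR-15b-5p share from -0.523 to 0.787 and the miR-16-5p share from -1.64 to 1.501. The deviations of same-numbered livers had r of -0.46, 0.35, -0.53 and 0.07. Every KO and WT liver from the same kind of library had a positive r with each other (0.07 to 0.50). Those from different kinds had a negative r (-0.59 to -0.18). Since r followed the kind of library, it cannot tell whether the numbers pair the livers. limma with a replicate block called 0 of 475, with miR-16-5p at -0.43 (adjusted p = 0.984). The planned quasi-likelihood count test was not run, and limma-voom was the fit made on the recovered tags.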

Other observations

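The files also hold rows for Rfam families, which are counted apart from the mature miRNAs. The mir-16 precursor family row had 410, 646, 651 and 348 CPM in KO replicates 1 to 4, against 768, 583, 387 and 602 CPM in WT replicates 1 to 4, or 514 ± 158 CPM in KO and 585 ± 156 CPM in WT (SD, n = 4 each). It amounted to 4.79 to 8.70% of miR-16-5p in the same library. Which tags were assigned to this row and not to a mature miRNA is not given in the sources used here.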
